A study of Homo sapiens with 6 samples.

Results

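The data describe the transcripts of 10 genes of the mTOR pathway in T47D, a human cell line of luminal-like breast cancer, kept in normoxia or in hypoxia. The genes were chosen by name from the 27754 genes of the count files. They are DDIT4, SESN1, SESN2, SESN3 and DEPTOR, which encode inhibitors of the pathway, RPTOR and RICTOR, which encode the subunits that define the kinase complexes, and TSC1, TSC2 and RHEB, which encode the switch upstream of the kinase. The study had 3 libraries of cells grown in 20% O2 and 3 libraries of cells held for 48 h in a hypoxia chamber at 0.5% O2 by the labels, while the study's text gives another oxygen level for this experiment. All were adherent cultures in RPMI with serum, carried no other treatment, and came from a single cell line. The labels number the libraries 1 to 3 in each condition without saying how the cultures were made, and the study's text speaks of independent experiments.

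The mTOR kinase integrates growth factor, amino acid, energy and oxygen signals to set the rate of protein synthesis. It acts in mTORC1, which contains RPTOR and drives translation, and in mTORC2, which contains RICTOR and phosphorylates AKT. GTP-bound RHEB activates mTORC1, the TSC1–TSC2 complex switches RHEB off, and low oxygen is known to engage this brake through DDIT4, also called REDD1. Sestrins restrain mTORC1 by way of the amino acid sensing GATOR complexes, and DEPTOR binds the kinase in both complexes. Most of this control acts on proteins, which counts of RNA do not measure.

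The libraries held between 32989104 and 89883409 counts, the most in hypoxia replicate 3, which put the floor of 3 counts at 0.0334 to 0.0909 counts-per-million (CPM), for counting error alone. Luminal markers were abundant in all libraries (9 genes with a summed 10188 to 18117 CPM), although 4 of 9 fell in hypoxia. That is 44.4% lower and 0% higher, against 29.1% and 30.4% of all tested genes. Among those that fell were the hormone receptors ESR1 (log2-fold change, or log2FC, of -1.86, adjusted p = 2.06e-05) and PGR (-2.93, adjusted p = 5.99e-05). KRT8, KRT18, KRT19, EPCAM and CDH1 did not pass the test. A fit blocked on replicate number gave 6 lower and 1 higher, where 35.2% of all tested genes were lower and 36.6% higher. Of 10 markers of leukocytes, endothelium and fibroblasts, 7 had at most 10 counts in every library, and the summed level of that list, most of it COL1A1, was 85.4 to 96.6 CPM in normoxia and 83.9 to 105.9 CPM in hypoxia. Of this list 3 were tested and 2 rose, or 66.7% against 30.4% of all tested genes. CD68, a lysosomal marker of macrophages, rose from 31 to 62 counts per library to 256 to 558 (log2FC 2.36, adjusted p = 1.63e-04). PDGFRB, a fibroblast and pericyte receptor, rose from 0, 0 and 3 counts to 14, 18 and 28 (adjusted p = 0.00624). The libraries numbered 3 stood apart in the mesenchymal transcript of vimentin. Vimentin (VIM) had 395 and 1001 counts in replicate 3 of normoxia and hypoxia, against 7 to 35 counts in the other libraries. In sum, replicate 3 was highest in each condition, though close to the others in normoxia, for 10 markers of mesenchymal or basal breast lines. The sums were 218.4, 218.85 and 229.7 CPM in normoxia replicates 1, 2 and 3, and 301.25, 304.1 and 396.4 CPM in the hypoxia replicates. Of these 10 markers, 8 were tested and 3 passed, all higher in hypoxia, or 37.5% higher and 0% lower against 30.4% and 29.1% of all tested genes. The part of these markers in the results below was not tested. The values of the 9 tested genes of the set are therefore also given without both libraries numbered 3. Of the 64 called genes of the pathway and transcription factor lists, 64 were called in the same direction without them, and the fold of 1 (PRR5L) moved by over 1.5 times. Leaving these libraries out raised the share called over all tested genes from 59.5% to 71.2%.

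DDIT4 is known as a direct target of hypoxia-inducible factors, whose core recognition letters are ACGTG or GCGTG. Both were searched on both strands from 250 bases before to 50 bases after each RefSeq start site, and 48.4% of 35116 such windows held at least 1 of them. The tables held 12 windows for 9 of the 10 genes (all but DEPTOR), and each window was found once, letter for letter, in GRCh37, the build of the count files. DDIT4 had the most matches of these genes, a number whose share over all windows was not counted. It had 4 on the strand of the gene, of which 3 lie upstream of the start site. They are printed 5′ to 3′ on the gene strand, with 10 bases on each side and the matching letters in capitals, because DDIT4 carried the largest change in transcript level of the set. For comparison, an ACGTG match of TSC2, a gene whose transcript fell, is also shown. It reads CACGTG and so matches on both strands.
DDIT4, 219 bases upstream (chr10:74033453-74033477): cagaaaggggGCGTGgcggtgggtc
DDIT4, 125 bases upstream (chr10:74033547-74033571): aacgttgcttACGTGcgcccggagt
DDIT4, 53 bases upstream (chr10:74033619-74033643): cgcagagaagGCGTGgcctcgccgc
TSC2, 113 bases upstream (chr16:2097863-2097887): cggccccgtcACGTGatgcaaggat

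The DDIT4 stretches 125 and 53 bases upstream overlap no gene in the GENCODE annotation. The stretch 219 bases upstream lies in an exon of an unnamed noncoding gene, and the TSC2 stretch in an exon of NTHL1, the neighbouring gene. Matches also occurred in windows of RHEB (1), RICTOR (2), RPTOR (2) and SESN1 (1, in 1 of its 3 windows), and none in those of SESN2, SESN3 and TSC1. Windows with matches thus belonged to genes whose transcripts rose and to genes whose transcripts fell. TGATGNAA, the core of elements bound by ATF4, matched in 3.62% of all windows and, among these genes, once in TSC2, where it shares letters with the ACGTG match. GTAAACA, the core bound by FOXO factors, matched in 3.42% of all windows and in none of these genes. A match of letters is a description and not a binding site.

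Of the 10 genes, 9 passed the filter on low counts. In hypoxia 7 of the 9 were higher and 2 lower at an adjusted p under 0.05 (edgeR's quasi-likelihood test over 15657 genes), where 30.4% of all tested genes were higher, 29.1% lower and 59.5% one or the other. The same split of 7 and 2 came with the replicate number as a block, under which 36.6% of all genes were higher, 35.2% lower and 71.8% either, and without the libraries numbered 3, where the shares were 36.4%, 34.8% and 71.2%. The inhibitors DDIT4, SESN1, SESN2 and DEPTOR rose, as did RICTOR, TSC1 and RHEB, and RPTOR and TSC2 fell. The median log2-fold change was 0.65 over the 9 genes and 0.028 over all tested genes. In each of the 9 genes the 3 hypoxia libraries lay outside the range of the 3 normoxia libraries, which was so for 67.3% of all tested genes (34.9% higher and 32.4% lower). Changes of this kind were thus common in these cells, and the size of the DDIT4 change was not: 1.09% of tested genes had a higher log2-fold change than DDIT4.

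**Figure D1:**
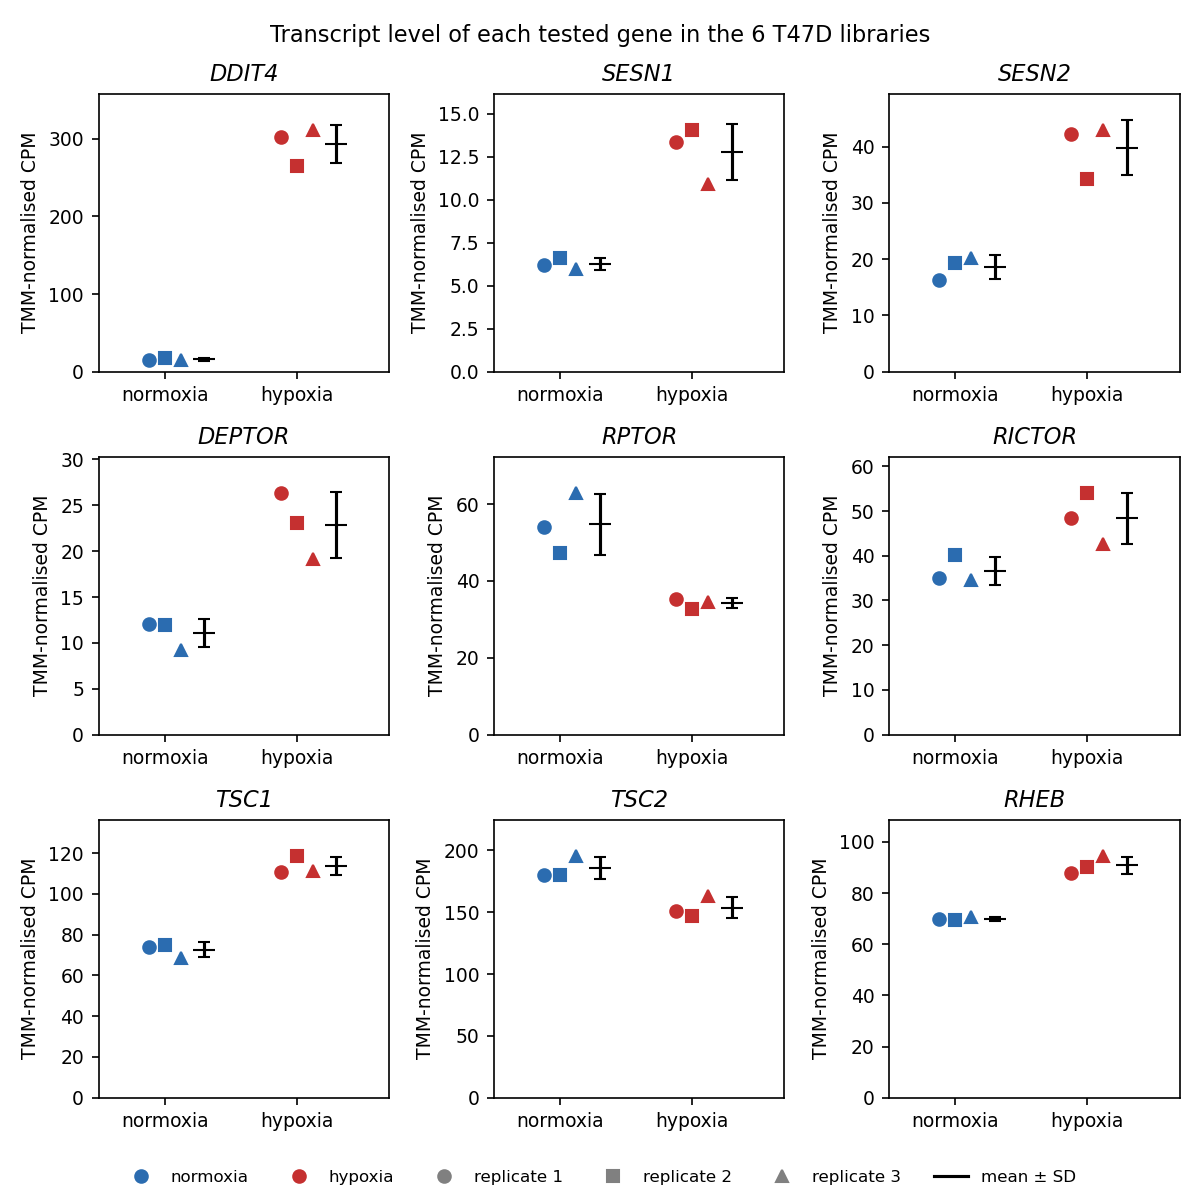
TMM-normalised CPM (vertical axis, from 0) of the 9 tested genes in each normoxia (blue) and hypoxia (red) library, with marker shapes for replicate numbers and bars for the mean ± SD of 3 libraries. DDIT4 went from 14.4 to 17.9 CPM in normoxia to 265.2 to 311.7 CPM in hypoxia, and the groups do not overlap in any panel.

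DDIT4 (chromosome 10, 74033677 to 74035794, forward strand, 3 exons) encodes the stress-induced protein that releases the TSC complex to act on RHEB. In replicates 1, 2 and 3, as in the sentences that follow, it was at 14.4, 17.9 and 15.5 CPM under normoxia and at 302.3, 265.2 and 311.7 CPM under hypoxia. The lowest hypoxia library, replicate 2, was paired by number with the highest normoxia library, and the groups were still far apart. The fit gave a log2FC of 4.20 (SE 0.12, adjusted p = 4.20e-06), an 18.4-fold rise, and 4.14 without the libraries numbered 3. Behind it stood 480 to 665 counts per normoxia library and 9700 to 28493 counts per hypoxia library. DDIT4L, the paralog of DDIT4, had 0 counts in all 6 libraries, and a change of it was not detectable at this depth.

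The genes whose profile over the 6 libraries was most like that of DDIT4 were known hypoxia-responsive genes. The measure was the root mean square distance between log2 CPM values, each gene centred on its own mean, for genes averaging 100 counts or more. VEGFA, the angiogenic growth factor, came nearest (0.154), then NDRG1 (0.161), a stress-responsive gene, and ANGPTL4 (0.193), a lipase inhibitor. Their log2FC values were 4.36, 4.37 and 4.45. With 2 conditions, this distance reflects mostly the size of the change. In the low oxygen reference list, 6 of 6 genes rose, or 100% against 30.4% of all tested genes. The largest of these changes was that of CA9, a carbonic anhydrase (5.29, and 4.69 without the libraries numbered 3).

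The sestrins are stress proteins, of which SESN2 is also a leucine sensor. SESN2 (chromosome 1, 28585963 to 28609002, forward strand) was at 16.3, 19.3 and 20.3 CPM in the normoxia replicates and at 42.3, 34.3 and 43.0 CPM in the hypoxia replicates. All hypoxia libraries were above all normoxia libraries, with replicate 2 the lowest of hypoxia. Its log2FC was 1.10 (SE 0.13, adjusted p = 3.02e-04), a 2.14-fold rise, and 1.11 without the libraries numbered 3.

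SESN1 (chromosome 6, 109307640 to 109415708, reverse strand), known as a target of FOXO factors, was at 6.18, 6.64 and 5.98 CPM in normoxia and at 13.4, 14.1 and 10.9 CPM in hypoxia. Replicate 3 was the lowest library of each condition. Its log2FC was 1.03 (SE 0.14, adjusted p = 5.70e-04), a 2.04-fold rise, and 1.10 without the libraries numbered 3. SESN3 (chromosome 11, 94898677 to 94965705, reverse strand) had 0 counts in each normoxia library and 0, 1 and 2 counts in hypoxia replicates 1, 2 and 3. It was at or under the floor of 3 counts in every library, so no fold change is given.

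SESN2 was the more abundant of the 2 measurable sestrin transcripts in both conditions. Levels were compared between genes as transcripts-per-million (TPM), which divides counts by exon length. SESN2 made up 73.1%, 75.0% and 77.7% of the summed sestrin TPM in normoxia replicates 1, 2 and 3, and 76.5%, 71.5% and 80.2% in the hypoxia replicates. The ranges overlapped, and the difference of means was 0.786 percentage points (exact two-sided permutation test, p = 0.9). Since 3 against 3 libraries cannot give a p below 0.1, this test could not have shown a shift. The genes nearest in profile to SESN2 were ASCL2 (0.0658), CEBPB (0.0822), which encodes a transcription factor of the stress response, and SSC4D (0.0834). Those nearest to SESN1 were COX10-AS1 (0.0414), TSNARE1 (0.0425) and NEAT1 (0.0457), a nuclear noncoding RNA known to respond to hypoxia.

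DEPTOR (chromosome 8, 120885895 to 121063157, forward strand) encodes the inhibitor that sits in both mTOR complexes. It was at 12.03, 11.9 and 9.27 CPM in normoxia and at 26.4, 23.1 and 19.1 CPM in hypoxia. Replicate 3 was the lowest library in each condition, and all hypoxia libraries were higher than all normoxia libraries. Its log2FC was 1.04 (SE 0.16, adjusted p = 9.65e-04), a 2.06-fold rise, and 1.05 without the libraries numbered 3. The genes nearest to it in profile were HIST1H2BD (0.0522), a histone gene, SKIL (0.0628), a repressor of SMAD signalling, and CLIC4 (0.0701).

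RPTOR, the scaffold that brings substrates to mTORC1, and RICTOR, the scaffold of mTORC2, moved in opposite directions. RPTOR (chromosome 17, 78518625 to 78940173, forward strand) was at 53.9, 47.3 and 62.9 CPM in normoxia and at 35.3, 32.8 and 34.5 CPM in hypoxia. The normoxia libraries were spread and the hypoxia libraries were tight and lower. The log2FC of this gene was -0.68 (SE 0.11, adjusted p = 0.00150), and -0.57 without the libraries numbered 3. RICTOR (chromosome 5, 38938023 to 39074510, reverse strand) was at 35.1, 40.2 and 34.5 CPM in normoxia and at 48.5, 54.1 and 42.7 CPM in hypoxia. The gap between the highest normoxia and the lowest hypoxia library was narrow. The log2FC of this gene was 0.40 (SE 0.11, adjusted p = 0.0151), and 0.45 without the libraries numbered 3. This call was lost when normoxia replicate 1 (0.36, adjusted p = 0.0656) or hypoxia replicate 2 (0.31, adjusted p = 0.0577) was left out.

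Within a library, the ratio of these transcripts does not depend on the scaling between libraries. RPTOR exceeded RICTOR per unit of length by 2.15, 1.65 and 2.56 times in the TPM of normoxia replicates 1, 2 and 3, and the ratio was 1.02, 0.850 and 1.13 in the hypoxia replicates. The transcripts that define the complexes were therefore about equal in hypoxia. The log2 ratio was lower in hypoxia by 1.07 on average, with no overlap of the groups (exact two-sided permutation test, p = 0.1, the smallest p this design allows). Because RPTOR fell and RICTOR rose without overlap, this separation follows from those changes and is not separate evidence.

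The other subunits of the complexes were mostly lower in hypoxia. In a list of 9 further subunits and assembly factors, 8 fell and 1 rose (88.9% lower and 11.1% higher, against 29.1% and 30.4% of all tested genes), with a median log2FC of -0.54 against 0.028. MTOR, the kinase itself, was at 126.0, 116.3 and 122.2 CPM in normoxia and at 61.7, 64.0 and 74.4 CPM in hypoxia (log2FC -0.87, SE 0.09, adjusted p = 2.29e-04). MLST8, the shared subunit that stabilises the kinase domain, changed by -0.39 on the log2 scale (adjusted p = 0.00501), AKT1S1, an inhibitory subunit of mTORC1 also called PRAS40, by -0.66 (adjusted p = 0.00131), and TELO2, which helps to assemble the kinase, by -0.97 (adjusted p = 0.0125). The genes of mTORC2 subunits are named after their values were seen. MAPKAP1 (SIN1) and PRR5 (protor-1) fell at log2FC -0.54 and -0.60 (adjusted p = 0.00277 and 0.0290). MAPKAP1 passed in all 16 other settings and PRR5 in 9, with adjusted p = 0.0682 under upper-quartile factors and 0.0516 under library totals. PRR5L, a paralog of PRR5, instead rose from 2 to 7 counts in the normoxia libraries to 41 to 75 counts in the hypoxia libraries (3.05, adjusted p = 9.74e-04, and 3.77 without the libraries numbered 3).

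Upper-quartile factors and library totals put the median log2FC over all tested genes at 0.185 and 0.144, against 0.028 with TMM. All 9 genes of this list kept their direction under both, and 6 of them were still lower by the test and 1 higher. Over all 15657 tested genes, 3285 were lower and 5972 higher with upper-quartile factors, and 3596 and 5614 with library totals. Without both libraries numbered 1, 3 of the list were lower and 1 higher, against 2191 and 2648 of 15713 tested genes. The balance of DEPTOR against the kinase it binds also shifted. The TPM ratio of DEPTOR to MTOR was 0.316, 0.339 and 0.251 in the normoxia libraries and reached 1.41, 1.19 and 0.851 in the hypoxia libraries. The mean of the log2 ratio was higher in hypoxia by 1.91, a 3.77-fold change without overlap of the groups (exact two-sided permutation test, p = 0.1). That separation follows from the rise of DEPTOR and the fall of MTOR, each without overlap, and is not separate evidence.

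**Figure D2:**
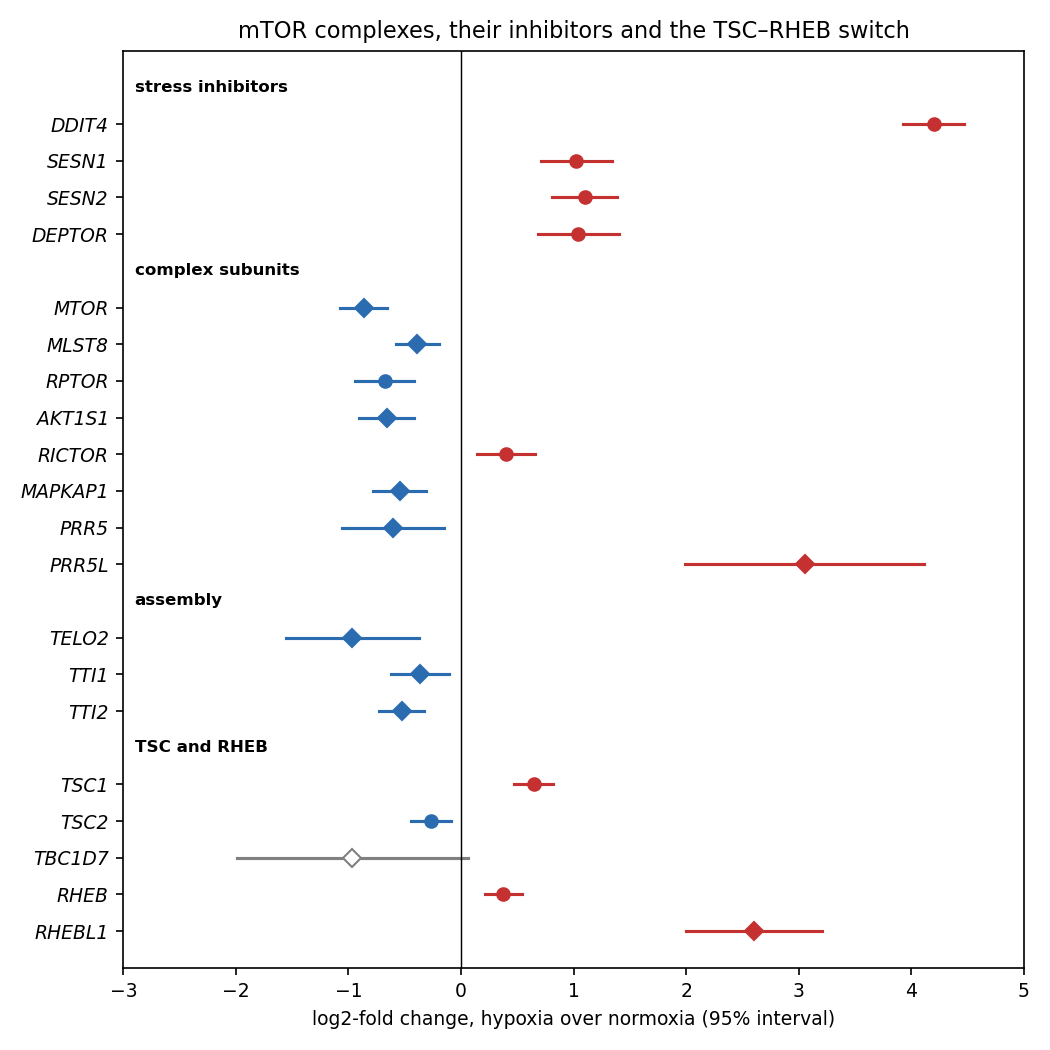
Log2-fold change of hypoxia over normoxia (horizontal axis) with its 95% interval for stress inhibitors, complex subunits, assembly factors and the TSC and RHEB genes. Circles are the genes chosen by name and diamonds other pathway genes, filled red where higher, filled blue where lower and open grey where the adjusted p was not under 0.05. Most complex subunits lie to the left of 0, while DDIT4 (4.20), PRR5L (3.05) and RHEBL1 (2.61) lie farthest to the right.

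TSC1 and TSC2, the subunits of the complex that inactivates RHEB, also moved apart. TSC1 (chromosome 9, 135766735 to 135820020, reverse strand), which stabilises its partner, was at 74.1, 75.2 and 68.4 CPM in normoxia and at 110.9, 118.7 and 111.1 CPM in hypoxia. The libraries of each condition were close to each other and the conditions were well separated. Its log2FC was 0.65 (SE 0.08, adjusted p = 3.33e-04), and 0.63 without the libraries numbered 3.

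TSC2 (chromosome 16, 2097896 to 2138721, forward strand), which carries the GTPase-activating domain, was at 180.1, 180.5 and 195.7 CPM in normoxia and at 150.8, 147.0 and 163.5 CPM in hypoxia. Its log2FC was -0.27 (SE 0.08, adjusted p = 0.0166), the smallest among the 9 genes, and -0.27 without the libraries numbered 3. The call was lost with upper-quartile factors (-0.11, adjusted p = 0.184) and with library totals (-0.15, adjusted p = 0.0841), and also without hypoxia replicate 1 (adjusted p = 0.0683) or hypoxia replicate 2 (adjusted p = 0.0647). TSC2 shares 11 exon bases with the antisense gene PKD1, which is 0.189% of its counted exons. The ratio of TSC1 to TSC2 in TPM was 0.277, 0.281 and 0.236 in normoxia and 0.496, 0.544 and 0.458 in hypoxia, so the TSC1 transcript remained the scarcer of the pair in every library. The log2 ratio was higher in hypoxia by 0.92 (exact two-sided permutation test, p = 0.1), which follows from the opposite changes of the 2 genes.

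TBC1D7, the other subunit of the TSC complex, had 56, 39 and 91 counts in normoxia and 25, 27 and 119 counts in hypoxia, a log2FC of -0.96 that did not pass the test (adjusted p = 0.0930). It passed with the replicate number as a block (adjusted p = 0.00467) and without the libraries numbered 3 (adjusted p = 0.0165), and it is named here after its values were seen. In its list of partners and paralogs 5 genes were tested, of which 2 rose (RHEBL1 and BNIP3) and 3 did not pass. That is 40% higher and 0% lower, against 30.4% and 29.1% of all tested genes. The block gave 2 higher and 2 lower, where 36.6% of all tested genes were higher and 35.2% lower.

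RHEB (chromosome 7, 151163098 to 151217010, reverse strand) encodes the GTPase that switches mTORC1 on. It was at 69.8, 69.3 and 70.7 CPM in normoxia and at 87.7, 90.1 and 94.6 CPM in hypoxia. The normoxia libraries were almost identical, and the rise was small beside those of the inhibitors. Its log2FC was 0.38 (SE 0.07, adjusted p = 0.00256), and 0.36 without the libraries numbered 3. The genome holds processed pseudogenes of RHEB, and how reads with several matches were counted is not given in the sources used here, so its count is less certain. RHEBL1, the paralog of RHEB, rose from 14, 19 and 10 counts to 93, 80 and 255 counts, that is log2FC 2.61 (adjusted p = 1.90e-04). In hypoxia RHEBL1 was still at 4.99 TPM on average, against 116.1 TPM of RHEB.

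BNIP3, a mitophagy receptor that also binds RHEB, rose from 51.1 ± 9.37 to 281.7 ± 56.2 CPM (SD, n = 3), that is log2FC 2.46 (adjusted p = 7.38e-05). The transcripts of DDIT4 and RHEB changed by unequal amounts. The TPM ratio of DDIT4 to RHEB was 0.245, 0.306 and 0.260 in normoxia and 4.09, 3.49 and 3.91 in hypoxia, a difference of 3.83 on the log2 scale (exact two-sided permutation test, p = 0.1). That separation follows from the far larger rise of DDIT4 and is not separate evidence.

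The calls differed in how far they held across 16 other settings (scaling, test, filter, block and libraries left out). DDIT4, SESN1, SESN2, DEPTOR, RPTOR and TSC1 passed the test in all of them, and all 9 genes kept their direction. RHEB missed the threshold in 1 setting, RICTOR in 4 and TSC2 in 6.

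**Figure D3:**
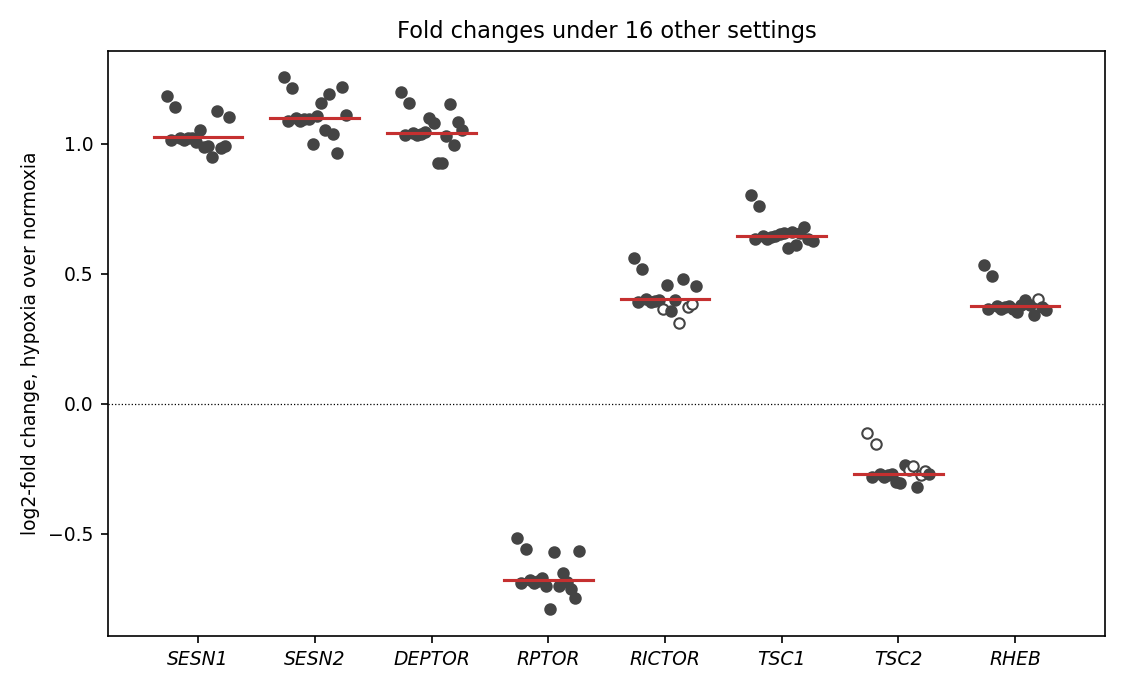
Log2FC of hypoxia over normoxia (vertical axis) for 8 genes, DDIT4 left out for its size, under 16 other settings. Filled points passed an adjusted p of 0.05, open points did not, and red lines mark the value reported in the text, such as 1.10 for SESN2 and -0.27 for TSC2.

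Ordered by TPM, the 10 genes changed places between conditions. In normoxia, RHEB (82.3 ± 2.19 TPM, SD, n = 3) and TSC2 (77.9 ± 1.16 TPM) were the most abundant, and DDIT4 (22.3 ± 2.94 TPM), TSC1 (20.6 ± 1.76 TPM) and RPTOR (19.4 ± 2.09 TPM) followed without separation beyond their spread. SESN2 (12.9 ± 1.29 TPM), DEPTOR (10.3 ± 1.78 TPM) and RICTOR (9.32 ± 1.08 TPM) came next, with DEPTOR and RICTOR within their spread of each other. SESN1 was at 4.22 ± 0.369 TPM. In hypoxia DDIT4 was the most abundant (444.3 ± 29.4 TPM), ahead of RHEB (116.1 ± 1.79 TPM) and TSC2 (70.2 ± 1.60 TPM). TSC1 (35.0 ± 2.25 TPM) and SESN2 (30.0 ± 3.16 TPM) followed, then DEPTOR (23.1 ± 4.29 TPM). RICTOR (13.4 ± 1.97 TPM) and RPTOR (13.2 ± 0.582 TPM) were not separated, and SESN1 (9.38 ± 1.499 TPM) remained the scarcest of the 9 tested genes.

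The rest of the pathway was described with 5 lists of 79 genes in the files, of which 78 were tested. In these lists 23 genes rose, 35 fell and 20 did not pass the test, or 29.5% higher and 44.9% lower against 30.4% and 29.1% of all tested genes. The median log2-fold change was -0.14. With upper-quartile factors the split was 27 higher and 25 lower (median 0.017), where 5972 of all tested genes were higher and 3285 lower. With library totals it was 26 each way, against 5614 higher and 3596 lower of all tested genes. Without both libraries numbered 1 it was 10 higher and 15 lower, against 2648 and 2191 of all tested genes.

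Among 28 genes of amino acid sensing at the lysosome, 7 rose and 12 fell, or 25% and 42.9% against 30.4% and 29.1% of all tested genes (median -0.070, and 0.089 with upper-quartile factors). RRAGD, a Rag GTPase, rose from 4.66, 5.21 and 2.91 CPM in normoxia to 36.5, 46.1 and 28.8 CPM in hypoxia, that is log2FC 3.11 (adjusted p = 8.32e-05). Folliculin (FLCN), which activates the Rag GTPases RRAGC and RRAGD, rose by 1.27 on the log2 scale (adjusted p = 7.88e-05) and its partner FNIP1 by 0.86 (adjusted p = 0.00147). CASTOR1, an arginine sensor that restrains mTORC1, had log2FC -0.96 (adjusted p = 0.00172), and LAMTOR5 and LAMTOR4, subunits of the Ragulator anchor, had -0.66 and -0.65 (adjusted p = 0.00576 and 0.00611).

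Of 19 genes that carry growth factor and energy signals, 7 rose and 7 fell, or 36.8% each way, near the 30.4% and 29.1% of all tested genes (median 0.049, and 0.206 with upper-quartile factors). The insulin receptor INSR rose from 6.57 ± 0.734 to 16.9 ± 2.95 CPM (SD, n = 3), that is log2FC 1.36 (adjusted p = 3.57e-04). IRS2, its adaptor, rose by 0.81 (adjusted p = 0.00885) and PRKAA2, a catalytic subunit of the energy sensor AMPK, by 0.64 (adjusted p = 0.00328). Those that fell most were PIK3CB, a catalytic subunit of PI3-kinase (-0.69, adjusted p = 1.69e-04), PRKAG1, a regulatory subunit of AMPK (-0.67, adjusted p = 2.33e-04), and AKT1, the kinase that phosphorylates TSC2 (-0.52, adjusted p = 0.00243).

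Of 17 substrates and outputs, 6 rose and 8 fell, or 35.3% and 47.1% against 30.4% and 29.1% of all tested genes (median -0.15, and 0.0049 with upper-quartile factors). EIF4EBP1, which encodes one of the translation repressors that bind eIF4E, was at 90.0, 78.7 and 116.0 CPM in normoxia and at 135.0, 120.9 and 163.5 CPM in hypoxia, that is log2FC 0.56 (adjusted p = 0.0181). EIF4EBP2, which encodes another of these repressors and is named after its values were seen, fell (log2FC -0.75, adjusted p = 3.30e-04). EIF4EBP3, of the same kind and also named afterwards, rose from 8, 13 and 12 counts to 30, 25 and 106 counts (adjusted p = 0.00809). It passed in 15 of the 16 other settings. EIF4E, the cap-binding factor that these repressors hold, fell from 64.1 ± 1.55 to 30.1 ± 1.76 CPM (SD, n = 3), that is log2FC -1.09 (adjusted p = 6.16e-05). PDCD4, an inhibitor of the helicase eIF4A, changed by -1.55 (adjusted p = 3.82e-05) and RPS6KB2, an S6 kinase, by -0.79 (adjusted p = 0.00479). TFEB, a lysosomal transcription factor that mTORC1 holds in the cytoplasm, rose by 1.44 (adjusted p = 5.59e-04) and PRKCA, a kinase that depends on mTORC2, by 0.69 (adjusted p = 0.00103). SGK1, another kinase of this list, is named after its values were seen. It had the largest fall of the list (log2FC -2.32, past the threshold in all 16 other settings).

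**Figure D4:**
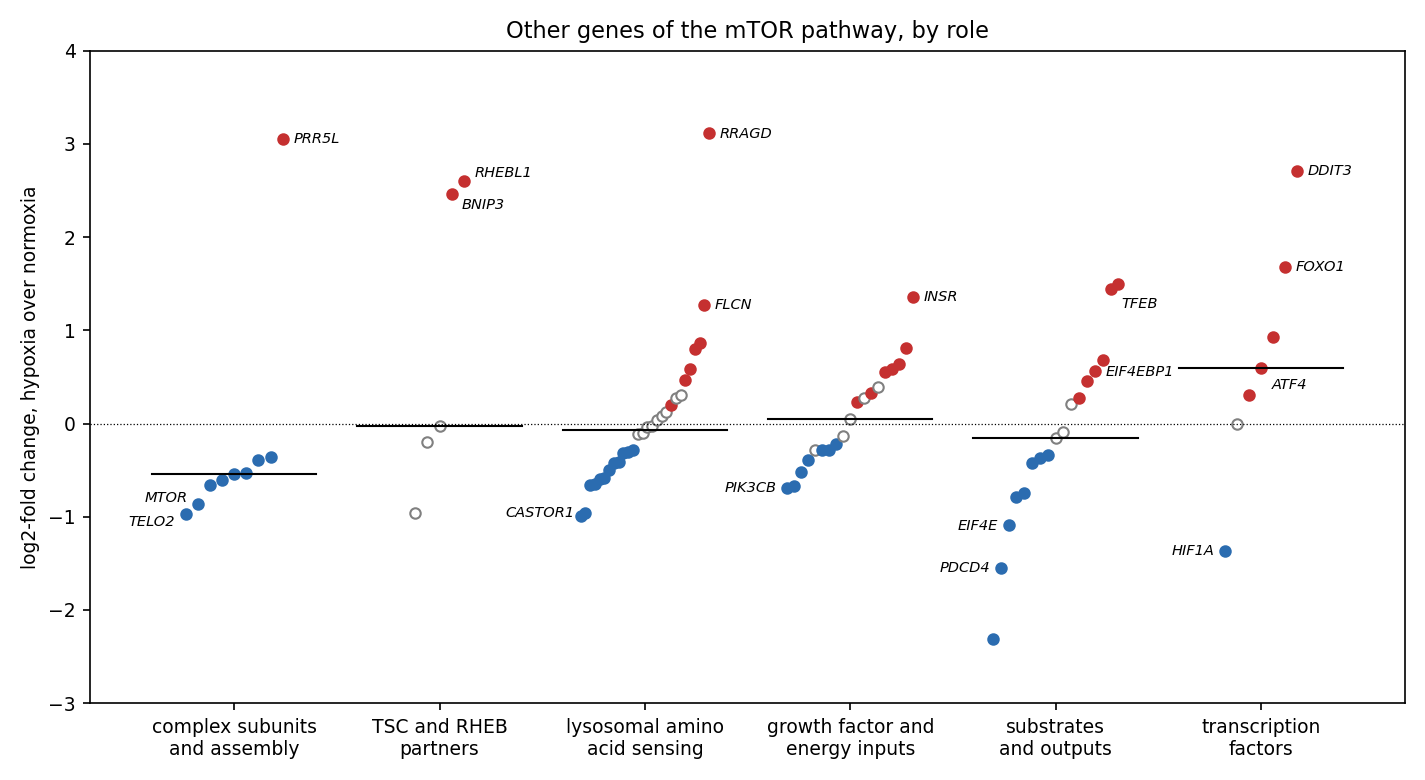
Log2-fold change of hypoxia over normoxia (vertical axis) of each tested gene of 6 lists, sorted within a list, filled red where higher, filled blue where lower and open grey where the adjusted p was not under 0.05, with a line at the median of each list. Subunits and assembly factors lie mostly below 0 (median -0.54), and 5 of 7 transcription factors were higher by the test.

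Of 7 transcription factors known to act on DDIT4 or the sestrins, 5 rose and 1 fell, or 71.4% and 14.3% against 30.4% and 29.1% of all tested genes, with a median log2FC of 0.60 against 0.028. HIF1A, the oxygen-regulated subunit of HIF-1, was at 137.8, 130.1 and 138.9 CPM in normoxia and at 56.7, 58.7 and 42.4 CPM in hypoxia, that is log2FC -1.37 (adjusted p = 1.42e-04). EPAS1, which encodes HIF-2α, did not pass the test (95% interval of the log2-fold change from -0.28 to 0.28), and ARNT, the partner of both, rose by 0.30 (adjusted p = 0.0178). DDIT3 (CHOP) rose from 13.1 ± 3.22 to 85.3 ± 15.7 CPM (SD, n = 3), that is log2FC 2.71 (adjusted p = 7.04e-05), and ATF4, which acts upstream of it in the integrated stress response, by 0.60 (adjusted p = 0.00105). FOXO1 and FOXO3, factors held in check by AKT, rose by 1.68 and 0.93 (adjusted p = 7.04e-05 and 0.00180). These are levels of RNA and not of factor activity.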

How the data were processed

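Total RNA of T47D cells was made into stranded mRNA libraries and sequenced on Illumina HiSeq. The labels and the study's methods name different extraction kits. The authors used FastQC 0.11.5 for read quality, Skewer for adapters, STAR 2.5.2a for alignment to GRCh37 (hg19) and featureCounts 1.5.1 for RefSeq genes, and deposited raw counts, 1 file per library. Whether counting used strand or multi-mapped reads is not given in the sources used here, so overlapping or near-identical genes are uncertain.

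Genes were filtered with edgeR's filterByExpr (minimum count 10, minimum total 15), which kept 15657 of 27754 genes. The main test was edgeR's quasi-likelihood test (edgeR 4.0.16, R 4.3.3) on all 6 libraries, with TMM factors, a model of condition alone and p-values adjusted by Benjamini-Hochberg (threshold 0.05). CPM values are TMM-normalised. TPM values were computed from the counts and the counted exon length in the files. Ratios within a library were compared with exact permutation tests in scipy 1.17.1. The fit was tested on simulated counts. Deviations from the condition means correlated between same-numbered libraries (0.338, 0.422 and 0.575 across genes), and the study's methods call the hypoxia and normoxia samples paired, so the replicate number was also used as a block.

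The genes, lists and rules were chosen with earlier results of these data known. The rule named the 10 genes, up to 3 genes each way with the largest change in each list among those past the threshold with a mean of at least 100 counts, all genes of the transcription factor list, and MTOR, MLST8, DDIT4L, RHEBL1 and EIF4EBP1. An item of the transcription factor list is not reported here. Alternatives were edgeR's exact test, DESeq2 1.42.0, other scaling factors, no filter on low counts, the block, other thresholds, and libraries left out. Promoter windows were taken from RefSeq (GRCh38.p14) and placed in GRCh37 by exact match. Plots were drawn with matplotlib 3.10.9.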

Additional observations from a re-analysis of the deposited data

How the results depend on the processing

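All 9 tested genes kept their direction in all 16 other settings, and 133 of 144 calls stayed past the threshold. TSC2 lost its call with upper-quartile factors (log2FC -0.11) and library totals (-0.15), which left 1 gene of the set lower. An adjusted p under 0.01 left 6 of the set higher and 1 lower, with RICTOR and TSC2 lost. Of all tested genes, 3359 were then higher and 3157 lower. Requiring an absolute log2FC of at least 1 left 4 of the set higher and 0 lower, 2373 and 768 of all genes, and 8 and 3 of the pathway lists, since that threshold is stricter by construction. With libraries left out, singly or by number, the log2FC ran from 0.31 to 0.48 for RICTOR, -0.32 to -0.24 for TSC2 and 0.34 to 0.40 for RHEB, 5 to 7 genes of the set were higher and 1 to 2 lower, 2648 to 5751 of all genes were higher and 2191 to 5506 lower, and 10 to 26 pathway genes were higher and 15 to 39 lower. The fewest came without both libraries numbered 1, and the cause was not tested. The difference of the log2 ratio of DDIT4 to RHEB ran from 3.71 to 3.98. The replicate block changed no call among the 9 genes (7 higher and 2 lower). In settings that leave a condition with 2 libraries, the spread rests on fewer libraries. With 3 libraries per condition, exact tests of ratios could not go below p = 0.1.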
